A study of Mus musculus with 3 samples.

Results

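Round spermatids of MiwiΔIns mice were compared with those of wild-type mice over all genes with appreciable expression in either genotype. Genes were taken where the mean of the MiwiΔIns and wild-type values was at least 1, which left 12463 of the 17946 genes in the table (69.4%). At the edge of this rule, Trim35 (mean 1.0) was inside and Sv2b (mean 0.995) outside. The cells were haploid spermatids of 28-day-old C57BL/6 males, sorted by flow cytometry on the DNA dye Hoechst. Genotypes were MiwiΔIns, with an altered allele of Miwi whose construction the labels do not describe, and wild type. A library of MiwiR371W, another Miwi allele, is given for reference only, beside single values and beside a few results for groups of genes. Each genotype had 1 library, whether it pooled animals is not stated, and no difference below has a replicate check or a test. Values are the deposited length- and library-normalised expression values, and ratios are log2((MiwiΔIns + 1)/(wild type + 1)).

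Miwi, the mouse gene Piwil1, encodes a PIWI protein that is loaded with piRNAs from pachytene spermatocytes to round spermatids. In round spermatids the genome is still transcribed, and mRNAs for sperm chromatin, the acrosome and the flagellum are made and in part stored for later translation. PIWI proteins can cut RNAs that pair with their piRNAs, and MIWI has also been linked to the stability and translation of spermatid mRNAs. Piwil1 itself had a value of 23.2 in MiwiΔIns and 20.28 in wild type (log2 0.19), which does not show which allele was transcribed.

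The sorted identity was checked with marker lists. Round spermatid markers summed to 7377 in MiwiΔIns and 4911 in wild type, of which Tnp1 alone made up 4861.05 in MiwiΔIns and 2626.18 in wild type, and elongating spermatid markers (Prm1, Prm2, Tnp2, Odf1, Akap4 and others) to 25196 in MiwiΔIns and 20346 in wild type. Spermatocyte markers summed to 1917 in MiwiΔIns and 2035 in wild type, with Hspa2 as the most abundant. Those of spermatogonia, Sertoli cells, Leydig cells and macrophages came to 24.9, 29.0, 43.9 and 11.4 in MiwiΔIns, and to 25.5, 36.8, 43.8 and 8.98 in wild type. The peritubular and endothelial list summed to 209 in MiwiΔIns and 260 in wild type, nearly all of it Actg2 (205.34 in MiwiΔIns and 257.11 in wild type), and no erythroid marker reached a mean of 1. A value of 5 in a transcript of 1 kb of effective length rested on about 71 fragments in MiwiΔIns and 66 in wild type. Counting error alone then gives a log2 ratio an SD of 0.247, against 0.174 at a value of 10 and 0.078 at 50. These SDs are for a ratio without the pseudocount and for 1 kb, and at a given value they are larger for shorter transcripts.

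The libraries were close over most genes. The log2 ratio had a median of 0.03, with quartiles of −0.19 and 0.25 and a 5th and 95th percentile of −0.52 and 0.67. Of the 12463 genes 6633 were above 0 and 5799 below, the share beside which the list counts below are to be read. Values lay within 1.5-fold of each other for 11113 genes (89.2%), and the correlation of log2(value + 1) across the 12463 genes, which share both libraries and are not replicates, was r = 0.983. A gene was counted past the 2-fold rule where its log2 ratio reached 1 in size and its higher value was at least 5, and past the 1.5-fold rule likewise at 0.58. In MiwiΔIns 111 genes (0.891%) were higher and 65 (0.522%) lower by the 2-fold rule. By the 1.5-fold rule 610 genes (4.89%) were higher and 217 (1.74%) lower. After both libraries were scaled to equal sums, the 1.5-fold split was 393 higher and 378 lower, so the excess of higher genes depends on the scale.

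Genes past the 2-fold rule were mostly of low abundance. The 111 higher genes had a median value of 11.2 in MiwiΔIns and 4.03 in wild type, and 12 of them reached 50 in the higher library. The 65 lower genes had a median of 2.65 in MiwiΔIns and 7.84 in wild type, and 5 reached 50. Protein-coding genes made up 60 of the 111 higher and 35 of the 65 lower genes, against 10946 of all 12463 genes compared. A clone, predicted or pseudogene name was carried by 68 higher and 39 lower genes. The share of such names over all genes compared is not given here. Transcripts of genes past the rule were short, with a median of 641 nt for higher and 642 nt for lower genes, against 1230 nt over all genes compared. Median GC content was 47.6% for higher genes, 52.2% for lower genes and 50% overall. Exon overlap with another gene on either strand was annotated for 28 higher and 29 lower genes, and is named below for only some genes. The share with overlap over all genes compared is not given here. At the edge of the rule, Tmem230 (26.3 in MiwiΔIns, 12.65 in wild type) was just inside and Arrdc3 (79.76 in MiwiΔIns, 39.42 in wild type) just outside, and on the lower side Xrcc6bp1 (2.29 in MiwiΔIns, 5.53 in wild type) was just outside.

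**Figure D1:**
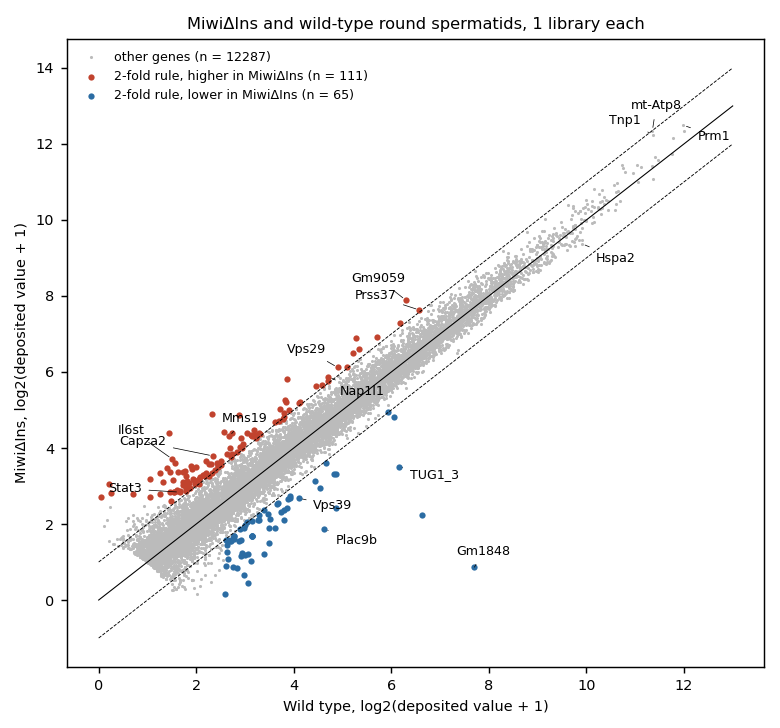
Expression of 12463 genes in the MiwiΔIns library (vertical axis) and the wild-type library (horizontal axis), each as log2(deposited value + 1). The solid line marks equal values and the dashed lines 2-fold; red points are the 111 genes higher and blue points the 65 genes lower in MiwiΔIns, most of them at low values, while mt-Atp8 and Tnp1 lie just below the upper dashed line at the abundant end.

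The largest gains in deposited value were in transcripts of sperm chromatin proteins and in mitochondrially encoded mRNAs. Transition proteins replace histones in the spermatid nucleus and protamines then replace the transition proteins. Tnp1 had 4861.05 in MiwiΔIns and 2626.18 in wild type (log2 0.89), Prm1 5776.49 in MiwiΔIns and 4043.15 in wild type (0.51), Tnp2 5166.58 in MiwiΔIns and 4085.39 in wild type (0.34), and Prm2 4540.22 in MiwiΔIns and 3502.52 in wild type (0.37). All 4 were higher in MiwiΔIns and none passed the 2-fold rule. Together they came to 20344 in MiwiΔIns and 14257 in wild type, a ratio of 1.43, against 1.08 for the sum over all genes of the table. Tnp1 shares exon sequence with 1700027A15Rik on the opposite strand, so its reads are not separated if strand was not kept. In MiwiR371W the values were 2810.74 for Tnp1, 4989.06 for Prm1, 4264.59 for Tnp2 and 4645.44 for Prm2.

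These 4 genes are classical targets of the haploid activator CREM, so their core promoters are shown as the 110 bases upstream of the start (RefSeq, GRCm38.p6, minus strand for each, 5′ to 3′). The windows are chr1:73015900-73016009 for Tnp1, chr16:10796824-10796933 for Prm1, chr16:10788656-10788765 for Tnp2 and chr16:10792106-10792215 for Prm2. Capitals mark TGANNTCA, a relaxed cAMP response element, and TATAA or its reverse complement.
Tnp1: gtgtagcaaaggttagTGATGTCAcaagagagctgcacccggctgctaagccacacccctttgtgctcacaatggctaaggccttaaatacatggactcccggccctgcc
Prm1: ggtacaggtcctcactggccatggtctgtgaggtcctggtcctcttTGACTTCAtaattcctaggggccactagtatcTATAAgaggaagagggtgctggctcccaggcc
Tnp2: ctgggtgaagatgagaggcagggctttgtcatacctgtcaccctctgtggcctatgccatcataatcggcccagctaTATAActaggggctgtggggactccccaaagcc
Prm2: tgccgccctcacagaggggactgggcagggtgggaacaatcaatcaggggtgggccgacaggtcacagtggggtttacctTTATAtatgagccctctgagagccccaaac

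The relaxed element began 94 bases before the start in Tnp1, written as position −94, and at −64 in Prm1. TATAA began at −32 in Prm1 and −33 in Tnp2, and the reverse complement at −30 in Prm2. The full palindrome TGACGTCA was in none of these windows. Over 32851 mouse promoters of the same length, searched on both strands, 6.75% held TGANNTCA, 1.2% held TGACGTCA and 10.9% held TATAA. A match is a description of these letters only. The wider list of CREM targets and haploid transcription genes had 24 members, of which 16 were above 0, with a median log2 ratio of 0.13. Tnp1 alone was past the 1.5-fold rule, where 4.89% of all genes compared were higher and 1.74% lower. Fhl5, the coactivator of CREM in testis, had 272.74 in MiwiΔIns and 191.64 in wild type (log2 0.51).

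Mitochondrially encoded mRNAs summed to 15140 in MiwiΔIns and 9749 in wild type, a ratio of 1.55, against 1.08 over all genes of the table. All 12 were above 0, with a median log2 ratio of 0.39, and 4 passed the 1.5-fold rule, where 4.89% of all genes compared were higher. The ATP synthase subunit mt-Atp8 had 5187.14 in MiwiΔIns and 2613.05 in wild type (log2 0.99) and the cytochrome oxidase subunit mt-Co2 2803.42 in MiwiΔIns and 1687.03 in wild type (0.73). The gene mt-Atp8 overlaps mt-Atp6 on the same strand and is short (204 nt), so its value is uncertain. The complex I subunit mt-Nd2 had 216.07 in MiwiΔIns and 135.92 in wild type (0.66). At the other end mt-Nd6, the complex I subunit on the opposite mitochondrial strand, was nearly level at 131.74 in MiwiΔIns and 129.31 in wild type (0.03). The small ribosomal RNA mt-Rnr1 had 46.84 in MiwiΔIns and 46.68 in wild type. These transcripts were the lowest in GC content of all lists, with a median of 36.5%, and with the trend of the ratio on GC and length removed their median was 0.26.

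Other large gains in value were the fatty acid binding protein Fabp9 of the sperm head (2661.08 in MiwiΔIns, 1719.43 in wild type, log2 0.63) and the glutathione transferase Gstm5 of the fibrous sheath (2454.39 in MiwiΔIns, 1763.34 in wild type, log2 0.48). The largest losses included all 3 Y-box proteins, which bind and store germ cell mRNAs. Ybx2 had 2141.05 in MiwiΔIns and 2623.31 in wild type (−0.29), Ybx3 1221.72 in MiwiΔIns and 1538.5 in wild type (−0.33), and Ybx1 1440.44 in MiwiΔIns and 1658.66 in wild type (−0.20). The translation elongation factor Eef2 had 638.94 in MiwiΔIns and 876.07 in wild type (−0.45). The chaperone Hspa2, abundant in spermatocytes, had 663.94 in MiwiΔIns and 957.92 in wild type (−0.53), the phosphoglycolate phosphatase Pgp 703.36 in MiwiΔIns and 960.11 in wild type (−0.45), and the flippase Atp8b3 of the acrosome 713.3 in MiwiΔIns and 920.14 in wild type (−0.37). None of these losses reached 1.5-fold.

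The X chromosome stood above the autosomes in its median ratio, and the gap widened with the mean value of both libraries. In round spermatids most X-linked genes are repressed after meiotic sex chromosome inactivation, while a set of them, many multi-copy or testis-specific, is expressed again. Of 453 X-linked genes 300 (66.2%) were above 0 in MiwiΔIns over wild type, with a median log2 ratio of 0.19, against 6199 of 11779 autosomal genes (52.6%) with a median of 0.02. By the 1.5-fold rule 65 X-linked genes (14.3%) and 525 autosomal genes (4.46%) were higher, and 13 (2.87%) and 196 (1.66%) lower. Over all X-linked genes of the table, ribosomal protein genes aside, the sum was 9948 in MiwiΔIns and 7684 in wild type. This is a ratio of 1.29, against 1.08 over all genes of the table. No single autosome had a median outside −0.03 to 0.09. After removal of the trend on GC and length, the X median was 0.07 and the autosomal one −0.02.

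**Figure D2:**
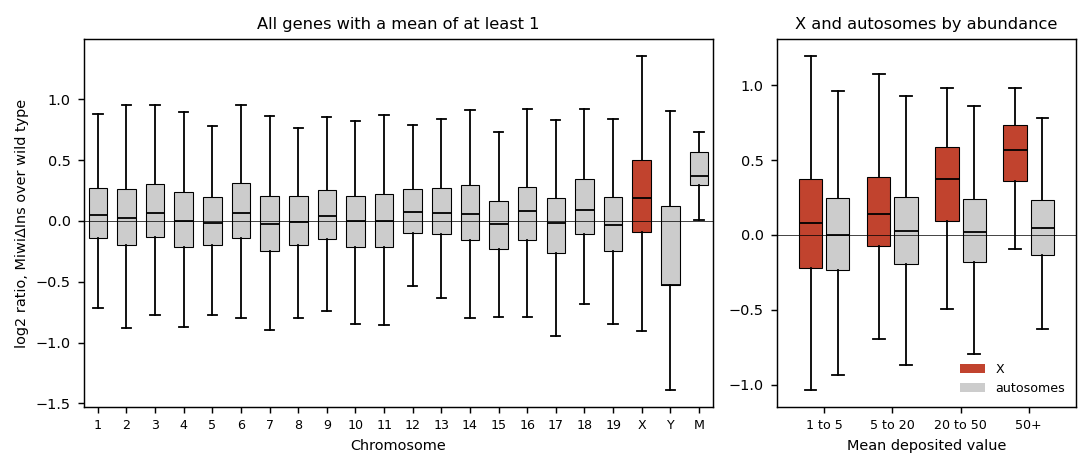
Log2 ratio of MiwiΔIns over wild type by chromosome (left, M is mitochondrial) and for X-linked and autosomal genes by mean deposited value (right); boxes are quartiles with the median as a line, and whiskers reach the furthest gene within 1.5 interquartile ranges. The X median is 0.19 over all genes and 0.57 at mean values of 50 and over, against 0.02 and 0.05 on the autosomes.

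By mean value, a split chosen after the values were seen, the X median was 0.08 for 204 genes between 1 and 5 and 0.14 for 148 genes between 5 and 20. It was 0.37 for 64 genes between 20 and 50 and 0.57 for 37 genes at 50 and over. The autosomal medians over the same ranges were 0.0, 0.03, 0.02 and 0.05. At 50 and over, 34 of 37 X-linked genes were above 0 and 18 (48.6%) were higher by the 1.5-fold rule, against 1506 of 2652 and 126 (4.75%) on the autosomes. The ranges use the mean of the 2 libraries compared, so a gene can enter through the library where it is high. Thus 4933428M09Rik (74.09 in MiwiΔIns, 40.75 in wild type) entered through MiwiΔIns and Gm1848 (0.82 in MiwiΔIns, 207.58 in wild type) through wild type. Autosomal genes were cut in the same way. Without the GC and length trend the X median in this range was 0.34 and the autosomal one −0.01, and with equal sums they were 0.46 and −0.06.

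Abundant X-linked transcripts were short, with a median of 697 nt, against 1030 nt on the autosomes, and lower in GC content (45.6% and 50.5%). The ratio was therefore also read within classes. Among transcripts of at least 1000 nt all 11 X-linked genes were above 0, with a median of 0.38, against 688 of 1365 autosomal genes with a median of 0.00. Among transcripts under 1000 nt with under 50% GC, the median was 0.66 for 23 X-linked and 0.23 for 541 autosomal genes. The elongating spermatid markers were also higher in MiwiΔIns, 9 of 10 above 0 with a median of 0.29. Their part in the X-linked ratio was not tested. The 37 genes had a median log2 ratio of −0.15 in MiwiR371W over wild type, against −0.07 for the 2652 autosomal genes in the same range. This comparison uses the same wild-type library.

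**Figure D3:**
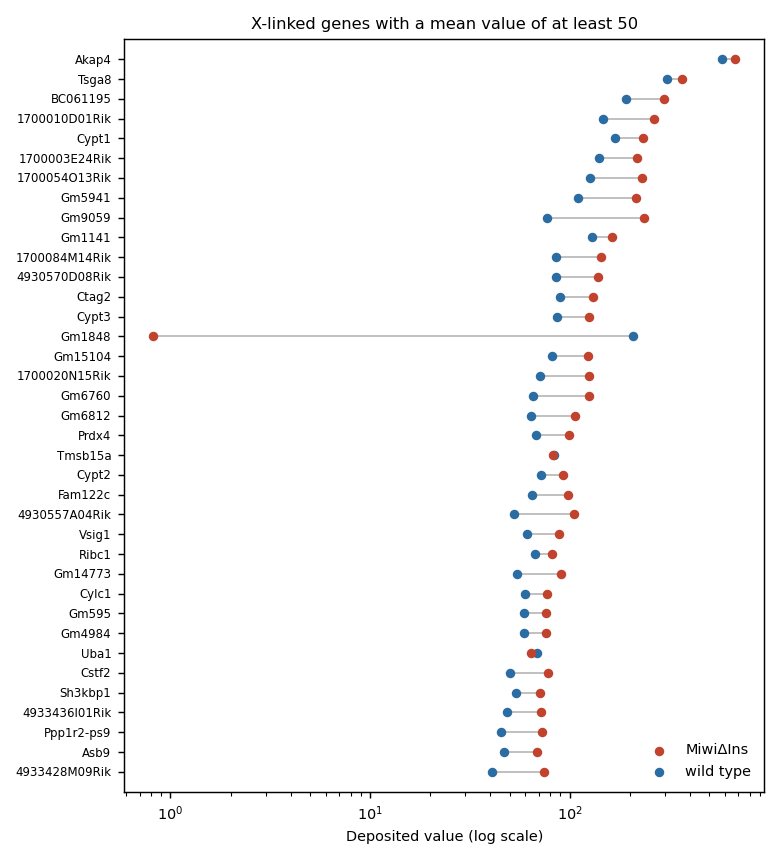
Deposited value (log axis) of the 37 X-linked genes with a mean of at least 50, in MiwiΔIns (red) and wild type (blue), ordered by mean. MiwiΔIns is the higher library for 34 genes, and Gm1848, at 0.82 against 207.58, stands far from the rest.

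Among abundant X-linked genes, Akap4, the main scaffold of the fibrous sheath of the sperm tail, had 676.26 in MiwiΔIns and 581.34 in wild type (log2 0.22). Tsga8, a gene of haploid germ cells, had 363.84 in MiwiΔIns and 306.01 in wild type (0.25). The cysteine-rich perinuclear theca genes were Cypt1, with 234.28 in MiwiΔIns and 168.7 in wild type (0.47), Cypt3, with 125.09 in MiwiΔIns and 86.03 in wild type (0.53), and Cypt2, with 93.0 in MiwiΔIns and 72.2 in wild type (0.36). All 3 were higher in MiwiΔIns, each by less than 1.5-fold. Cylc1, the cylicin of the perinuclear theca, had 76.89 in MiwiΔIns and 60.03 in wild type (0.35). Larger ratios were those of the polyadenylation factor Cstf2, with 77.81 in MiwiΔIns and 50.01 in wild type (0.63), Fam122c, with 98.71 in MiwiΔIns and 64.57 in wild type (0.60), and Gm5941, with 215.49 in MiwiΔIns and 109.9 in wild type (0.97). The peroxiredoxin Prdx4 had 98.73 in MiwiΔIns and 68.16 in wild type (0.53), and Ctag2 131.03 in MiwiΔIns and 89.43 in wild type (0.55).

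Exceptions on the X were Uba1, the ubiquitin-activating enzyme, with 64.05 in MiwiΔIns and 68.53 in wild type (log2 −0.10), and the thymosin Tmsb15a, with 82.61 in MiwiΔIns and 83.12 in wild type (−0.01). Both of the largest ratios in this range belonged to pseudogenes. Gm9059 (chromosome X, 96966257 to 96966648, minus strand) had 236.66 in MiwiΔIns and 45.91 in MiwiR371W, against 77.46 in wild type (1.6 for MiwiΔIns over wild type). Gm1848 (chromosome X, 21146844 to 21147640, plus strand) had 0.82 in MiwiΔIns and 0.39 in MiwiR371W, against 207.58 in wild type, a log2 ratio of −6.84 for MiwiΔIns over wild type. Only the wild-type library was high for Gm1848, and how its reads were divided from near-identical copies is not given. These X-linked examples, other than Gm1848, were chosen after their values were seen.

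On the Y chromosome 33 genes had a median log2 ratio of −0.52, but 15 of them fell into 3 sets of identical values, the largest with 9 genes. Counting each set once left 21 values with a median of −0.04. The translation initiation subunit Eif2s3y had 41.9 in MiwiΔIns and 38.43 in wild type, the zinc finger gene Zfy2 7.64 in MiwiΔIns and 6.58 in wild type, and Uba1y 8.65 in MiwiΔIns and 10.74 in wild type. Erdr1, of the pseudoautosomal region, had 6.03 in MiwiΔIns and 0.19 in wild type (log2 2.56). Its value in wild type is too low for the size of the ratio to be read.

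Among protein-coding genes the largest increase named by the rule was in a cytokine receptor. Il6st (chromosome 13, 112464070 to 112510086, plus strand) encodes gp130, the receptor chain through which the interleukin-6 family signals. It had 12.1 in MiwiΔIns and 2.19 in MiwiR371W, against 1.84 in wild type (log2 2.21 for MiwiΔIns over wild type). MiwiΔIns was thus the high library of the 3. Stat3, the transcription factor activated by gp130, had 6.15 in MiwiΔIns and 1.51 in MiwiR371W, against 2.18 in wild type (1.17), and shares exon sequence with Stat5a on the opposite strand. With a pseudocount of 5 Stat3 was at 0.63. The gp130 signalling list was centred near 0, with 5 of 10 measured members above 0 and a median of −0.02. Its members Lifr (1.92 in MiwiΔIns, 2.08 in wild type) and Osmr (0.99 in MiwiΔIns, 1.18 in wild type), both receptor partners of gp130, were low in both libraries.

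Genes of transcription and chromatin were past the 2-fold rule in both directions. Polr2k, a small subunit shared by the RNA polymerases, had 11.04 in MiwiΔIns and 9.0 in MiwiR371W, against 3.81 in wild type (log2 1.32 for MiwiΔIns over wild type). Polr2b, the second largest subunit of RNA polymerase II, had 3.39 in MiwiΔIns and 10.37 in wild type (−1.37), and shares exon sequence with Igfbp7 on the opposite strand. The largest subunit Polr2a was nearly level at 35.07 in MiwiΔIns and 36.63 in wild type (−0.06). Over the 12 measured subunits 8 were above 0, with a median of 0.15, and Mediator had 13 of 29 above 0 with a median of −0.03. The histone chaperone Nap1l1 (chromosome 10, 111473223 to 111498150, plus strand) was one of the few abundant genes past the rule, with 57.43 in MiwiΔIns and 44.81 in MiwiR371W, against 25.21 in wild type (1.16 for MiwiΔIns over wild type). The zinc finger gene Zfp260 had 7.09 in MiwiΔIns and 2.3 in wild type (1.29), the sole member past the rule among 202 KRAB and other Zfp genes, where 0.891% of all genes compared were higher. The median of this list was 0.02. Lower were the transcription factor Runx3, with 4.91 in MiwiΔIns and 11.85 in wild type (−1.12), and the CDK2-associated protein Cdk2ap1, with 4.71 in MiwiΔIns and 11.67 in wild type (−1.15).

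Histone genes as a list had 11 of 28 members above 0 and a median of −0.12. The short variant H2afb1 of spermatid chromatin had 215.38 in MiwiΔIns and 111.91 in wild type (log2 0.94). The DNA damage histone H2afx had 16.39 in MiwiΔIns and 25.29 in wild type (−0.60), and the linker histone H1fx 64.06 in MiwiΔIns and 86.17 in wild type (−0.42). The remodellers and readers of spermatid chromatin were centred on 0, with 14 of 29 above it and a median of −0.02. Among them Chd3 had 20.4 in MiwiΔIns and 29.16 in wild type (−0.50), and the histone methyltransferase Dot1l 201.98 in MiwiΔIns and 255.93 in wild type (−0.34).

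Membrane traffic and the secretory pathway gave single genes past the rule inside lists with medians between −0.09 and 0.11. Vps29, a retromer subunit, had 68.52 in MiwiΔIns and 41.94 in MiwiR371W, against 28.86 in wild type (log2 1.22 for MiwiΔIns over wild type). It shares exon sequence with Fam216a on the opposite strand. The other retromer subunits Vps35 (45.17 in MiwiΔIns, 42.96 in wild type) and Vps26a (205.09 in MiwiΔIns, 212.83 in wild type) were near level. Vps39 of the HOPS complex, which tethers membranes to lysosomes, had 5.4 in MiwiΔIns and 33.52 in MiwiR371W, against 16.21 in wild type (−1.43 for MiwiΔIns over wild type), so MiwiΔIns was the lowest library. Its HOPS partner Vps41 had 3.52 in MiwiΔIns and 2.3 in wild type (0.45). The sorting adaptor Gga3 had 11.21 in MiwiΔIns and 11.78 in MiwiR371W, against 24.45 in wild type (−1.06 for MiwiΔIns over wild type). Gga3 shares exon sequence with Mrps7 on the opposite strand. The endosomal sorting gene Stam had 15.13 in MiwiΔIns and 6.7 in wild type (1.07).

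Sec11c, the catalytic subunit of the signal peptidase complex, had 21.16 in MiwiΔIns and 8.1 in wild type (log2 1.28), in a list of 32 signal peptidase, translocon and oligosaccharyltransferase genes with 21 above 0 and a median of 0.11, or −0.04 with the trend removed. Pigk, the catalytic subunit of the GPI transamidase, had 19.43 in MiwiΔIns and 19.89 in MiwiR371W, against 8.16 in wild type (1.16 for MiwiΔIns over wild type). It shares exon sequence with St6galnac5 on the opposite strand. The list of 19 GPI anchor genes had a median of −0.09. COPI and COPII coat genes had 9 of 17 above 0 and a median of 0.03. Solute carriers had 71 of 159 above 0, a median of −0.04, and 1 member past the 2-fold rule, where 0.522% of all genes compared were lower. This was the testis organic anion transporter Slco6b1, with 3.77 in MiwiΔIns and 10.11 in wild type (−1.22).

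In the cytoskeleton, the actin capping subunit Capza2 had 12.84 in MiwiΔIns and 4.08 in wild type (log2 1.45). Its partner Capzb had 188.54 in MiwiΔIns and 153.43 in wild type (0.30), the paralog Capza1 109.9 in MiwiΔIns and 109.2 in wild type (0.01), and the testis-specific Capza3 169.09 in MiwiΔIns and 127.99 in wild type (0.40). Capza2 was thus the least abundant of these 4 genes. The list of actin, actin-like and capping genes had 21 of 29 above 0 and a median of 0.12. The unconventional myosin Myo18a had 5.45 in MiwiΔIns and 30.11 in MiwiR371W, against 14.2 in wild type (−1.24 for MiwiΔIns over wild type). Tubulins had 5 of 12 above 0 and a median of −0.07, with Tubb4b at 994.03 in MiwiΔIns and 1136.64 in wild type (−0.19).

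Among enzymes, Mms19, which delivers iron-sulfur clusters to nuclear proteins, had 18.8 in MiwiΔIns and 15.59 in MiwiR371W, against 5.4 in wild type (log2 1.63 for MiwiΔIns over wild type). Wild type was the low library, and Mms19 shares exon sequence with Zdhhc16 on the opposite strand. The other 18 members of the iron-sulfur list were below the 2-fold rule, and the list median was 0.03. Fumarase, Fh1, had 19.37 in MiwiΔIns and 5.94 in MiwiR371W, against 8.23 in wild type (1.14), while the TCA cycle list had 7 of 16 above 0 and a median of −0.05. Glod4 had 24.55 in MiwiΔIns and 11.24 in wild type (1.06) and shares exon sequence with neighbours on both strands. Also higher was Dydc2, with 36.16 in MiwiΔIns and 39.03 in MiwiR371W, against 16.58 in wild type (1.08 for MiwiΔIns over wild type). Cachd1 had 10.38 in MiwiΔIns and 4.43 in wild type (1.07). The serine protease homologue Prss37, needed in mouse sperm for fertility and chosen after its values were seen, was the most abundant protein-coding gene past the rule, with 197.11 in MiwiΔIns and 94.46 in wild type (1.05).

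Lower was Plac9b, with 2.64 in MiwiΔIns and 14.49 in MiwiR371W, against 23.74 in wild type (log2 −2.76 for MiwiΔIns over wild type). The deubiquitinase Otud7a had 5.64 in MiwiΔIns and 5.87 in MiwiR371W, against 14.16 in wild type (−1.19 for MiwiΔIns over wild type). Plac9b has near-identical copies, so the division of its reads is uncertain. TUG1_3, an annotated fragment inside the long non-coding RNA gene Tug1, had 10.35 in MiwiΔIns and 8.98 in MiwiR371W, against 70.41 in wild type (−2.65 for MiwiΔIns over wild type). Only the wild-type library was high for TUG1_3. Tug1 as a whole had 22.21 in MiwiΔIns and 21.69 in wild type (0.03). The fragment lies within Tug1 on the same strand, and how reads were divided between them is not given. Higher among named non-coding genes were Rpl28-ps1, with 10.22 in MiwiΔIns and 2.99 in wild type (1.49), and Dcdc5, with 18.15 in MiwiΔIns and 8.29 in wild type (1.04). Dcdc5 shares exon sequence with Dnajc24 and Gm29053 on the opposite strand.

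Most ribosomal protein genes were above 0. By the 2-fold rule 3 large-subunit and 0 small-subunit genes were higher, where 0.891% of all genes compared were higher. Of 45 large-subunit ribosomal protein genes 39 were above 0, with a median log2 ratio of 0.30. Of 31 small-subunit genes 29 were above 0, with a median of 0.32. Over both subunits 15 genes were higher by the 1.5-fold rule (10 and 5) and 0 lower, where 4.89% of all genes compared were higher and 1.74% lower. Rpl22 had 48.76 in MiwiΔIns and 21.07 in wild type (1.17), and Rpl10 6.45 in MiwiΔIns and 2.06 in wild type (1.28). Rpl10a had 24.99 in MiwiΔIns and 67.13 in MiwiR371W, against 11.97 in wild type (1.0 for MiwiΔIns over wild type). Rpl10a shares exon sequence with CT025652.2 on the opposite strand. Rps24 had 1349.89 in MiwiΔIns and 784.81 in wild type (0.78) and Rps25 171.51 in MiwiΔIns and 96.0 in wild type (0.83). The paralog genes stood apart from each other, with Rps27l at 72.63 in MiwiΔIns and 45.86 in wild type (0.65) and the testis paralog Rpl10l at 205.89 in MiwiΔIns and 247.6 in wild type (−0.26).

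Reads of ribosomal protein genes can be shared with their processed pseudogenes. A list of 29 such pseudogenes, added after the values were seen, had 22 above 0 and a median of 0.34. Rps25-ps1 had 8.05 in MiwiΔIns and 1.06 in wild type (log2 2.14), and Rps26-ps1 13.41 in MiwiΔIns and 5.18 in wild type (1.22). Without the GC and length trend the medians were 0.28 for the large subunit, 0.15 for the small subunit and 0.22 for the pseudogenes. Mitochondrial ribosomal protein genes had 56 of 74 above 0 and a median of 0.23, with Mrpl47 at 79.53 in MiwiΔIns and 39.91 in wild type (0.98). Mrps17, of the small mitochondrial subunit, went the other way, with 3.31 in MiwiΔIns and 8.72 in wild type (−1.17). Initiation factors were centred near 0, with 26 of 47 above 0 and a median of 0.01, as were elongation and release factors, with 5 of 12 above 0 and a median of 0.00.

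Nuclear genes of oxidative phosphorylation had smaller medians than the mitochondrial mRNAs. Complex I had 28 of 36 genes above 0 and a median of 0.20, with the accessory subunits Ndufb5 at 158.48 in MiwiΔIns and 81.16 in wild type (log2 0.96) and Ndufa3 at 45.95 in MiwiΔIns and 23.53 in wild type (0.94). Ndufb5 and Mrpl47 overlap on opposite strands, so their ratios may rest in part on the same reads. Complexes II and III had a median of 0.17, with the testis cytochrome c gene Cyct at 102.75 in MiwiΔIns and 58.23 in wild type (0.81). Complex IV had a median of 0.26 and the ATP synthase 0.09, with Atp5j2 at 43.02 in MiwiΔIns and 22.37 in wild type (0.91). With the trend removed these medians were 0.04, 0.09, 0.09 and −0.06. Sperm glycolysis genes had 7 of 19 above 0 and a median of −0.07, although the lactate dehydrogenase Ldhc had 2780.19 in MiwiΔIns and 2094.1 in wild type (0.41).

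Sm and Lsm proteins of the spliceosome had 16 of 22 genes above 0 and a median of 0.30, or 0.12 with the trend removed. The Sm proteins Snrpd1 and Snrpd3 had 31.17 and 20.75 in MiwiΔIns, against 13.97 and 10 in wild type (log2 1.10 and 0.98). Their partners Snrpb (3.56 in MiwiΔIns, 4.06 in wild type, log2 −0.15) and Snrpd2 (115.45 in MiwiΔIns, 107.88 in wild type, 0.10) were nearer to level. SR proteins and hnRNPs had 15 of 31 above 0 and a median of 0.00. Proteasome genes had 29 of 42 above 0 and a median of 0.18, or 0.06 with the trend removed. The core subunit Psmb1 had 25.22 in MiwiΔIns and 12.97 in wild type (0.91), and Psma2 13.84 in MiwiΔIns and 7.57 in wild type (0.79). All 10 genes of the CCT chaperonin were within 1.5-fold, as were 89.2% of all genes compared. Of the 10 genes 9 were above 0, with a median of 0.14, or −0.02 with the trend removed.

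**Figure D4:**
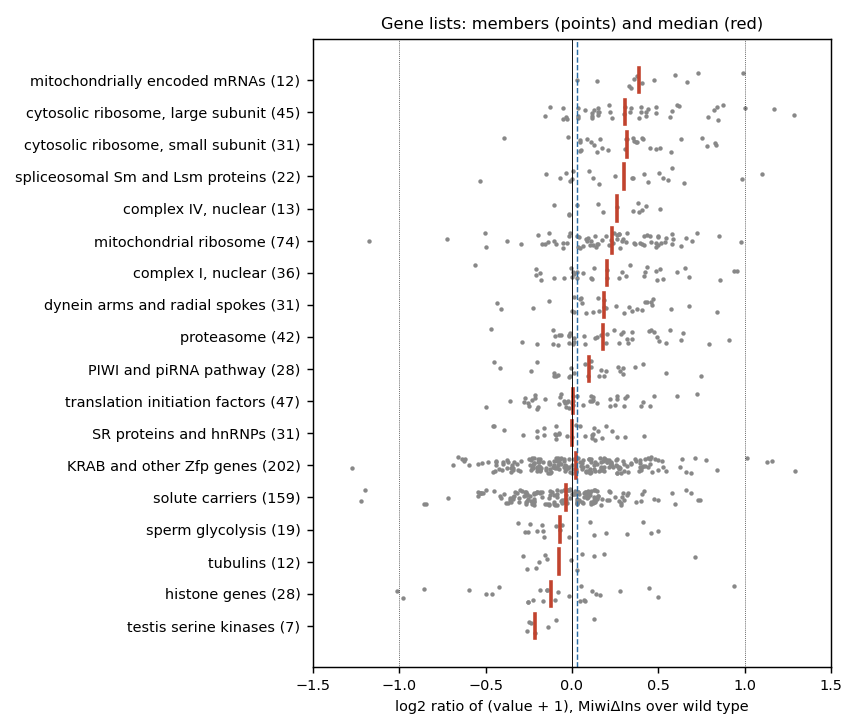
Log2 ratio of MiwiΔIns over wild type for the members (grey points) of 18 gene lists, with each list's median in red and its number of members in brackets. The dashed blue line is the median over all 12463 genes (0.03) and dotted lines mark 2-fold; list medians run between 0.39 for mitochondrially encoded mRNAs and −0.22 for testis serine kinases.

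Several lists of sperm tail genes were mostly above 0, in part only before the GC and length trend was removed. Over all genes compared 6633 of 12463 were above 0, and the fibrous sheath and intraflagellar transport lists lay nearest to that share. Dynein arm and radial spoke genes had 27 of 31 above 0 and a median of 0.19, which was 0.17 with the trend removed. The radial spoke head gene Rsph1 had 1263.45 in MiwiΔIns and 849.63 in wild type (log2 0.57), and the dynein light chain genes Dynlrb2 363.95 in MiwiΔIns and 227.48 in wild type (0.68) and Dynlt3 26.85 in MiwiΔIns and 14.56 in wild type (0.84). Outer dense fibre and capsule genes had 11 of 13 above 0 and a median of 0.13, or 0.18 with the trend removed, with the mitochondrial sheath gene Spata19 at 557.82 in MiwiΔIns and 337.31 in wild type (0.72). Fibrous sheath genes had 9 of 15 above 0 and a median of 0.14, or 0.00 with the trend removed. Intraflagellar transport and BBSome genes had 16 of 25 above 0 and a median of 0.11, which turned to −0.06 with the trend removed. CatSper channel genes (3 of 8 above 0, median −0.03), tektins (2 of 5, −0.05) and ADAM metalloproteases (16 of 24, 0.10) had no member past the 1.5-fold rule. Over all genes compared 4.89% were higher and 1.74% lower by this rule, so few such members would be counted in lists of this size.

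Testis serine kinases, which phosphorylate proteins of the elongating spermatid, had 1 of 7 genes above 0 and a median of −0.22. Tssk6 had 145.93 in MiwiΔIns and 175.34 in wild type (log2 −0.26), and Tssk2 288.39 in MiwiΔIns and 343.46 in wild type (−0.25). Without the GC and length trend their median was 0.01. The piRNA pathway had 17 of 28 members above 0 and a median of 0.10, or 0.01 with the trend removed. It had 1 member past 1.5-fold and 0 past 2-fold, where 4.89% and 0.891% of all genes compared were higher. That member was the tudor protein Tdrd1, with 10.69 in MiwiΔIns and 5.96 in wild type (0.75). Gtsf1l, a paralog of the PIWI cofactor Gtsf1, had 761.17 in MiwiΔIns and 521.57 in wild type (0.54), Gtsf1 itself 380.53 in MiwiΔIns and 295.15 in wild type (0.37), and the kinesin Kif17 173.09 in MiwiΔIns and 237.58 in wild type (−0.45).

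Genes reported to act with MIWI in mRNA turnover, in translation or in its own degradation had 11 of 24 above 0 and a median of −0.02, or −0.18 with the trend removed. The deadenylase subunit Cnot7 had 20.9 in MiwiΔIns and 30.36 in wild type (log2 −0.52), and the APC/C activator Fzr1 94.82 in MiwiΔIns and 134.24 in wild type (−0.50). The wider CCR4-NOT and decay list had 18 of 36 above 0 and a median of −0.01, with Cnot2 at 60.43 in MiwiΔIns and 36.16 in wild type (0.73). Immediate early and heat shock genes had 6 of 17 above 0 and a median of −0.13, or −0.05 with the trend removed. Unfolded protein response genes had 13 of 18 above 0 and a median of 0.13, or −0.02 with the trend removed.

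Non-coding gene types were shifted upwards relative to protein-coding genes. Median log2 ratios were 0.13 for 403 antisense genes, 0.12 for 423 lincRNA genes, 0.14 for 224 processed transcripts and 0.09 for 440 pseudogenes, against 0.02 for 10946 protein-coding genes. The share higher by the 1.5-fold rule was 10.9%, 12.8%, 9.38% and 10.2% for these types, against 4.04% for protein-coding genes. The share lower was also larger, at 4.22%, 3.07%, 3.57% and 4.77%, against 1.43% for protein-coding genes. These types thus had more genes past the rule in both directions. Examples chosen after their values were seen were the lincRNA gene Gm21980, with 118.67 in MiwiΔIns and 37.71 in wild type (1.63), and the antisense gene Gm13267, with 95.78 in MiwiΔIns and 39.68 in wild type (1.25). Without the GC and length trend these medians were 0.04, 0.04, 0.06 and 0.00, against −0.02 for protein-coding genes.

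The ratio followed the base composition of the transcript. Across 12279 annotated genes, which share both libraries, its Spearman correlation with GC content was −0.35 and with length −0.11. With the genes divided by GC into 5 equal classes, the median was 0.13 in the lowest class (31.9% to 44.6%) and −0.19 in the highest (55.6% to 74.7%). By length it was 0.09 in the shortest and −0.03 in the longest class. Genes both short and low in GC had a median of 0.22, and those long and high in GC −0.27. Over genes with at least 5 in either library the correlation with GC was −0.43, against −0.18 for MiwiR371W over wild type. The part of this trend in the gene lists above was measured only through the trend-removed values, and its source was not tested.

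**Figure D5:**
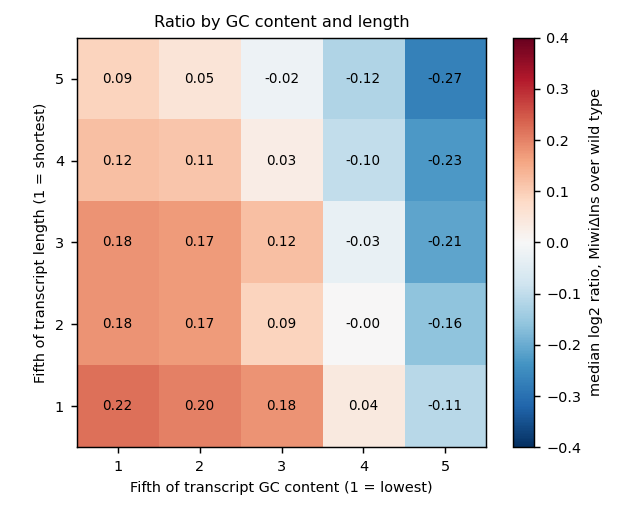
Median log2 ratio of MiwiΔIns over wild type in 25 classes of genes by 5 levels of transcript GC content (horizontal, low to high) and 5 of transcript length (vertical, short to long). Colour and printed number give the median, which runs between 0.22 for short transcripts of low GC and −0.27 for long transcripts of high GC.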

How the data were processed

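Messenger RNA of round spermatids was sequenced with the VAHTS mRNA-seq V3 kit, 1 library per genotype, per the labels' protocols. The authors deposited a signal per gene, adjusted for the length of the transcript and the size of the library. The tools Trim Galore 0.5.0, STAR and RSEM and the build mm10 (GRCm38) are named per the submitters' processing notes. The sources used here give neither the choice between FPKM and TPM nor whether strand was kept.

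Ratios used a pseudocount of 1, which understates changes of low genes. Positions, lengths and GC content came from GENCODE M21, matched on the identifier without version for 17673 genes. A robust cubic surface in GC and log length gave the trend that was removed. Depth was estimated from steps in low values of single-transcript genes over 2500 nt, with 250 nt subtracted, at 0.07 value × kb in MiwiΔIns and 0.076 in wild type. The mean distance of values from whole steps was 0.155 and 0.134 steps, against 0.25 without steps. Trend and step search were tested on simulated data. Python 3.11.15, pandas 2.3.3, numpy 2.4.6 and scipy 1.17.1 were used.

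Genes named were Piwil1, the 15 largest ratios each way among protein-coding genes with a given name past the 2-fold rule and at least 10 in the higher library, the 8 largest differences in value each way, 4 non-coding genes each way, and up to 3 members each way of each of 57 gene lists. Partners of named genes in the same complex or pathway, and other genes outside the rule, were added after their values were seen. Some genes named by these criteria are left out here. Genes and lists were chosen with earlier results of these data known.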

Additional observations from a re-analysis of the deposited data

Results flagged for a closer look

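In 3 of the 12463 genes the 2 mutant libraries lay past the 2-fold rule on opposite sides of the wild-type library they share. In the same direction, 22 of the 111 higher and 25 of the 65 lower genes also passed the rule in MiwiR371W. Both ratios use the same wild-type library, so a gene that is off in that library passes in the same direction in both. The counts therefore do not measure agreement between the mutants. The share of all genes past the rule in MiwiR371W is not given here. None of these differences was tested, with 1 library per genotype. Vps39, of the HOPS complex, had log2 ratios of −1.43 in MiwiΔIns and 1.0 in MiwiR371W. Myo18a, an unconventional myosin, had −1.24 in MiwiΔIns and 1.03 in MiwiR371W. The lincRNA gene 1700023C21Rik (chromosome 11, 109845878 to 109848476, plus strand) had 29.51 in MiwiΔIns, 1.87 in MiwiR371W and 13.01 in wild type, log2 ratios of 1.12 and −2.29.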

How the results depend on the processing

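No paired analysis was possible because each genotype had 1 library. The counts of genes past the rules depended on the settings. The 111 genes higher by the 2-fold rule were 65 with the GC and length trend removed (72 lower), 60 among protein-coding genes and 33 with a pseudocount of 5. The 65 lower genes were 38 at a mean of at least 5, 35 among protein-coding genes and 17 with a pseudocount of 5. By the 1.5-fold rule the 610 higher genes were 351 with the trend removed, 393 with equal sums and 373 with a pseudocount of 5, and the 217 lower genes 378 with equal sums and 97 with a pseudocount of 5. The X median of 0.19 was 0.07 with the trend removed and 0.06 with no filter, and that of X-linked genes at 50 and over (0.57) was 0.34 with the trend removed and 0.46 with equal sums, where the autosomal median was −0.06 in place of 0.05. The Y median of −0.52 was −0.71 with the trend removed, −0.25 with no filter, −0.87 and −0.19 with pseudocounts of 0.1 and 5, and turned to 0.12 at a mean of at least 5. The cause was not tested. Of 36 named genes past the 2-fold rule, 25 lost the call with a pseudocount of 5, 12 with the trend removed and 6 with equal sums. Those lost with the trend removed included Fh1 (0.85), Glod4 (0.89), Myo18a (−0.91), Nap1l1 (0.97), Otud7a (−0.90), Rpl22 (0.94), Snrpd1 (0.78), Stam (0.76), Vps29 (0.94) and Zfp260 (0.99). Medians over all settings stayed within 0.20 to 0.31 for large-subunit ribosomal genes, 0.26 to 0.39 for mitochondrially encoded mRNAs and 0.09 to 0.20 for dynein arms and radial spokes. Other lists crossed 0, among them CREM targets (−0.04 to 0.13), intraflagellar transport (−0.06 to 0.11), CCT (−0.02 to 0.14), the unfolded protein response (−0.02 to 0.16), ATP synthase (−0.06 to 0.09) and testis serine kinases (−0.32 to 0.01). At a value of 5 counting error limits single ratios, and variation between animals was not measured.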
